A study of Homo sapiens with 8 samples.

Results

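The EGR, FOS and JUN immediate early genes are 10 genes that encode transcription factors, chosen by name: EGR1, EGR2, EGR3, FOS, FOSB, FOSL1, FOSL2, JUN, JUNB and JUND. In the probe set annotation 9 of the 10 were paired with at least 1 probe set of exactly 1 gene symbol, which gave 21 probe sets out of 41091 and 9 genes out of 19775. EGR2 was not analysed here. RNA was measured on 8 Affymetrix arrays of A375, a human melanoma cell line with an activating BRAF mutation, and each condition had 1 array. Cells were transfected with an siRNA against BRAF (siBRAF), an siRNA against ATF4 (siATF4) or a nontargeting siRNA (siCont). The first 5 arrays held siBRAF and siCont cells in glutamine-free medium and siBRAF, siATF4 and siCont cells in normal medium, over 18 h per the labels' protocols. The other 3 held siATF4 and siCont cells in 10 uM vemurafenib, an inhibitor of mutant BRAF, and siCont cells in DMSO, its solvent, for 4 h. All 8 arrays are of transfected A375 cells in serum, so no array shows untransfected cells.

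Immediate early genes are transcribed within minutes of a signal without the need for new protein. The ERK kinases, which lie below BRAF, switch many of them on through ETS factors bound beside serum response factor (SRF) at CArG boxes, and the stress kinases JNK and p38 also act on them. EGR proteins are zinc finger factors that bind GC-rich sites. FOS and JUN proteins join through leucine zippers into AP-1, which binds short palindromic sites. FOS proteins need a JUN partner, while JUN proteins can also pair with each other.

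The stretches upstream of the transcription start of 4 members are shown because these genes had unlike patterns over the 5 medium arrays: EGR1 and FOS were high on 1 array alone, JUN was high on 3, and JUND had the narrowest span of the 9 genes, 2.16-fold. Sequences are from RefSeq on GRCh38.p14, read 5′ to 3′ on the gene's strand, and end at the base before the annotated start. Capitals mark every match, on either strand, to 7 motifs: the CArG box, the AP-1 site TGANTCA, the 8-letter AP-1 or CRE form TGANNTCA, the CRE core TGACG, the EGR site GCGNGGGCG, the ATF4 and CHOP composite TGATGNAA and the TATA box TATAAA. A full CRE also matches its core on both strands.
EGR1, chr5:138465229-138465478, plus strand: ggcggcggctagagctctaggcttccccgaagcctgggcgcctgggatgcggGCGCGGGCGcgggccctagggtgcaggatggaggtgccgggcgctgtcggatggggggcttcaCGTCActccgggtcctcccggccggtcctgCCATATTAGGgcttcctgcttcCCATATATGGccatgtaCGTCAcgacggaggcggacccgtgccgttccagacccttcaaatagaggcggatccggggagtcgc
FOS, chr14:75278578-75278827, plus strand: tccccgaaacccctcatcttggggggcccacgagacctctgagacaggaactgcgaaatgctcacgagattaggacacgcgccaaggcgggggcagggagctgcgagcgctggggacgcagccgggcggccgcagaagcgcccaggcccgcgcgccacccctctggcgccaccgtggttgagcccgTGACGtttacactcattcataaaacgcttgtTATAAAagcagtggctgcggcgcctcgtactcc
JUN, chr1:58784048-58784297, minus strand: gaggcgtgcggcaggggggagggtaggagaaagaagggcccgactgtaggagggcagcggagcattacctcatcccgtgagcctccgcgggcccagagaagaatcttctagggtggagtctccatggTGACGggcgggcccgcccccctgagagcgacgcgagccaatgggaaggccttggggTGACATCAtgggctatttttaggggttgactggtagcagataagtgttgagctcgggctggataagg
JUND, chr19:18281623-18281872, minus strand: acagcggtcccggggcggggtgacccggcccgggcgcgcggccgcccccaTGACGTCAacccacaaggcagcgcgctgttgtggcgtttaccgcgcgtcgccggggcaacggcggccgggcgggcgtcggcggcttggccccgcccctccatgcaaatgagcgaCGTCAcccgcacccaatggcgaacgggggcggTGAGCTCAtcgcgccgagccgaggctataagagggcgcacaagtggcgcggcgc

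RefSeq places EGR1 at chr5:138465479-138469303, FOS at chr14:75278828-75282230, FOSB at chr19:45467996-45475179, FOSL1 at chr11:65892049-65900545, FOSL2 at chr2:28392858-28417317, JUN at chr1:58780791-58784047, JUNB at chr19:12791486-12793315 and JUND at chr19:18279694-18281622, all on GRCh38.p14. The 250 bases shown lie outside the transcripts. There EGR1 held 2 CArG boxes, CCATATTAGG starting 105 bases upstream and CCATATATGG starting 83 bases upstream, and 1 EGR site 198 bases upstream. Of the 7 members whose upstream sequence was scanned, EGR1 was the 1 with a CArG box, which 1.16% of all 35116 windows held. EGR2, EGR3 and FOSL1 were not scanned, so whether they hold these motifs is not known here. The best known serum response element of FOS lies farther upstream than this window. TGACG was found in 7 of 7 members against 21.2% of all windows, at 64 bases upstream in FOS. TGANNTCA was found in 2 of 7, JUN (TGACATCA, 67 bases upstream) and JUND, against 10.1%. TATAAA was found in 3 of 7 (FOS, FOSB and JUNB) against 10.7%. TGATGNAA was found in 0 of 7 against 3.14%, TGANTCA in 0 of 7 against 6.57%, and the EGR site in EGR1 alone against 8.41%. These matches describe letters and not binding.

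The deposited values are RMA intensities, brightness on a linear scale. The 5 medium arrays had medians of 14.8 to 15.5 and the 3 DMSO and vemurafenib arrays of 36.4 to 36.9, so each difference was taken within its set of arrays. Differences are of log2(intensity + 1) between 2 single arrays, with at least 2-fold counted where the higher value reached its array median. With 1 array per condition there is no replicate spread and no test, and a difference describes a pair of arrays. The targeted gene ATF4 read 534 on the siATF4 array in normal medium, where siCont gave 1814, and 757 on the siATF4 array in vemurafenib, where siCont gave 4548. No probe set was paired with BRAF in the annotation, so siBRAF was not checked on its target. The melanoma markers SOX10, MITF, S100B, MIA and CSPG4 lay above the array median on all 8 arrays, as did S100A1 and the pigment gene TYR. Of the other pigment genes, PMEL reached the median on 3 arrays and MLANA and TYRP1 on 0. Of 7 markers of other cell types EPCAM, PTPRC and CDH5 lay below the median on all 8 arrays. KRT5, KRT14, CD3E and PECAM1 lay above it on all 8, KRT14 highest on each. On the 5 medium arrays TYR (15.43 to 17.71) and KRT5 (18.39 to 21.95) lay close to the median, and CD3E was at 21.04 to 31.29. Some markers differed within the pairs compared below, and their values stand there. Their part in the differences was not tested. The actin 3′ over 5′ ratio, a sign of RNA quality, was 0.279 (log2) in siCont cells without glutamine and 0.158 to 0.204 on the other 4 medium arrays. On the 3 DMSO and vemurafenib arrays it was -0.177 to -0.002. Its part in the differences was not tested. An array averages its cells, so a lower level from fewer cells of a kind and one from less RNA per cell cannot be told apart.

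**Figure D1:**
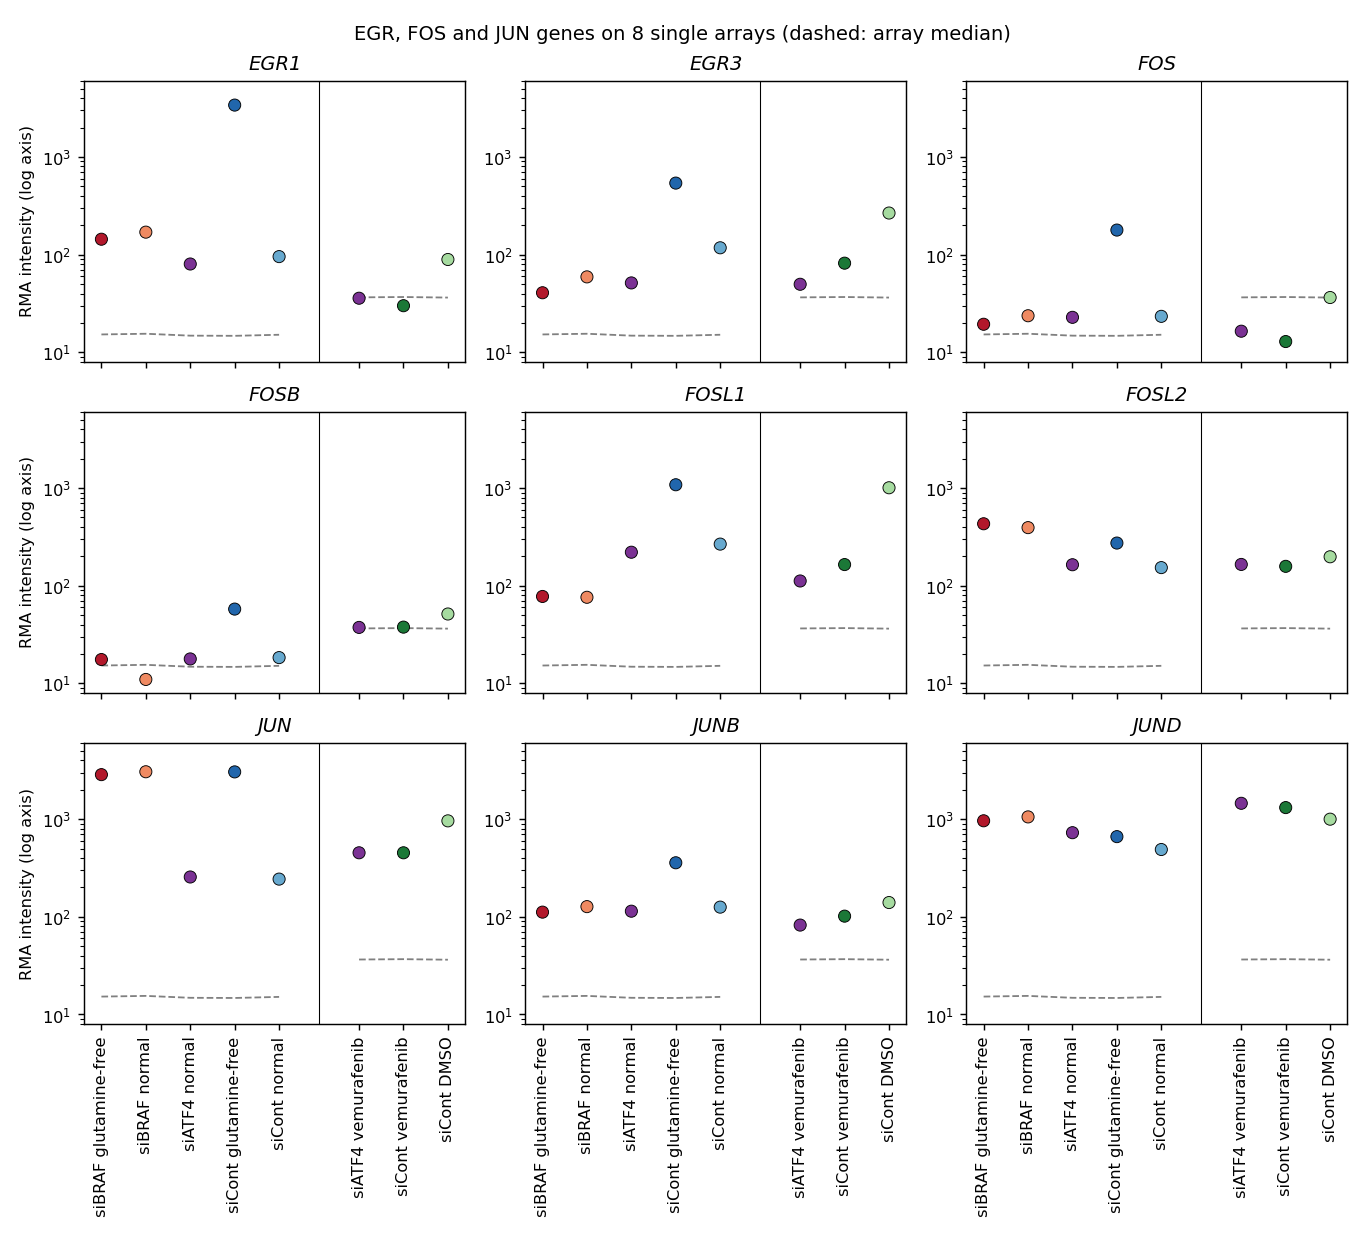
RMA intensity of the 9 genes (log axis) on the 8 arrays, 1 point per array; the vertical line separates the 5 medium arrays from the 3 DMSO and vemurafenib arrays, whose scales differ, and the dashed lines are array medians. EGR1 stood at 3403 in siCont cells without glutamine and at 80.3 to 170 on the other 4 medium arrays, while JUN stood at 2858 to 3058 on 3 of these 5 arrays and at 243 to 256 on the other 2.

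In siCont cells 7 of the 9 genes were at least 2-fold higher without glutamine, beside 5.76% of all genes counted, and 0 were lower, beside 7.22%. EGR1, which responds to growth factors and to stress, had the largest difference of the 9, at 5.14, the third highest of 13355 genes counted. JUN followed at 3.64, then FOS at 2.88, EGR3 at 2.19, FOSL1 at 2.01, FOSB at 1.60 and JUNB at 1.50. The median over the 9 genes was 2.01, beside -0.05 over all genes. FOSL2 (0.83) and JUND (0.44) were within 2-fold. On the same pair the melanoma marker S100B was at -1.39, the 1 of 8 counted that was at least 2-fold lower, with 0 higher, and the keratin gene KRT14 read 90.1 without glutamine against 182 in normal medium, 1 of 4 markers of other cell types past 2-fold.

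In intensity, EGR1 read 3403 in siCont cells in glutamine-free medium, against 95.6 in siCont cells in normal medium, 35.6-fold higher. Its 3 probe sets gave differences of 5.14 to 5.57. EGR3, a close relative of EGR1 known from lymphocyte and muscle spindle development, read 541 without glutamine against 118 in normal medium.

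FOS, the founding partner of JUN in AP-1, read 179 in siCont cells without glutamine against 23.4 in normal medium. The lower of these values is near the array median of 15.1, and with log2(intensity + 16) the difference was 2.31. FOSB, which is induced beside FOS, read 57.7 against 18.4, both low. FOSL1 encodes FRA1, an AP-1 subunit that builds up under lasting ERK signalling, and it read 1082 against 267. Its relative FOSL2, which encodes FRA2, read 274 against 153, and its 5 probe sets gave 0.54 to 1.66, with 1 of them past 2-fold.

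JUN, the AP-1 subunit that JNK phosphorylates and that can act on its own gene, read 3049 in siCont cells without glutamine against 243 in normal medium, 12.5-fold higher. Its 4 probe sets gave 3.24 to 4.58. JUNB, often a counterweight to JUN, read 358 against 126. JUND, the member kept at a steady level in many resting cells, read 662 against 489, and its 4 probe sets ranged from -0.29 to 0.44. On the probe sets that stand for the genes, FOSL2 and JUND had the 2 smallest differences of the 9.

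Other immediate early genes were higher on the same pair of arrays, at least 2-fold in 16 of 23 and lower in 0, with a median of 1.73. ATF3, a stress-induced factor that can pair with JUN, stood at 4.21 and MYC at 3.31, while EGR4, the remaining EGR family gene, was at -0.11. Of 12 bZIP factors that can share dimers with AP-1 proteins 7 were at least 2-fold higher, among them ATF3 and the CHOP gene DDIT3 at 3.75. Of 15 genes linked to AP-1 as targets 8 were higher and 0 lower, with the cytokine genes IL6 at 4.38 and IL11 at 2.80. Of 10 SRF, ETS and CREB regulators 0 were higher and 1 was lower, MRTFB at -1.25, and SRF itself was at -0.01. Of 5 JNK and p38 pathway kinases 0 were higher and 2 were lower, MAP2K6 at -2.68 and MAP3K5 at -1.15. The EGR corepressors NAB1 and NAB2, which bind EGR factors and restrain them, were at 0.83 and 0.73. Of 18 ERK output genes 6 were at least 2-fold higher and 1 was lower, with a median of 0.65. Some genes stand on more than 1 of these lists.

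With BRAF knocked down, 9 of the 9 genes differed by less than 2-fold between glutamine-free and normal medium. Of all genes counted, 0.0457% passed 2-fold upward and 0.0761% downward. The median over the 9 was -0.13 and the range -0.53 for EGR3 to 0.63 for FOSB. FOSB read 17.6 without glutamine against 11.0 in normal medium, the latter below its array median of 15.5. With log2(intensity + 16) its difference was 0.31. The SD of the differences over all genes was 0.19 in this pair, against 0.72 in siCont cells. The pair of siBRAF arrays shares no array with the siCont pair.

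EGR1 read 144 in siBRAF cells without glutamine against 170 in siBRAF cells in normal medium. FOS read 19.4 against 23.7, and FOSL1 read 77.7 against 76.2. On both siBRAF arrays these 3 genes lay far below the siCont array without glutamine. JUN read 2858 against 3058, and FOSL2 read 431 against 394. On both siBRAF arrays these 2 genes lay above the siCont array in normal medium. The other immediate early genes had 0 of 21 at least 2-fold apart in siBRAF cells, with a median of -0.01.

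The difference between these 2 responses, siBRAF minus siCont, was -5.38 for EGR1, -3.74 for JUN, -3.16 for FOS, -2.72 for EGR3, -1.99 for FOSL1 and -1.69 for JUNB. For FOSB, which had low intensities, it was -0.97, for FOSL2 -0.70 and for JUND -0.57. It rests on 4 single arrays and was not tested. For EGR1 and JUN the negative value had unlike levels behind it. EGR1 stayed at 144 to 170 on the siBRAF arrays, near its siCont level in normal medium of 95.6. JUN was at 2858 to 3058 there, near its siCont level without glutamine of 3049.

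**Figure D2:**
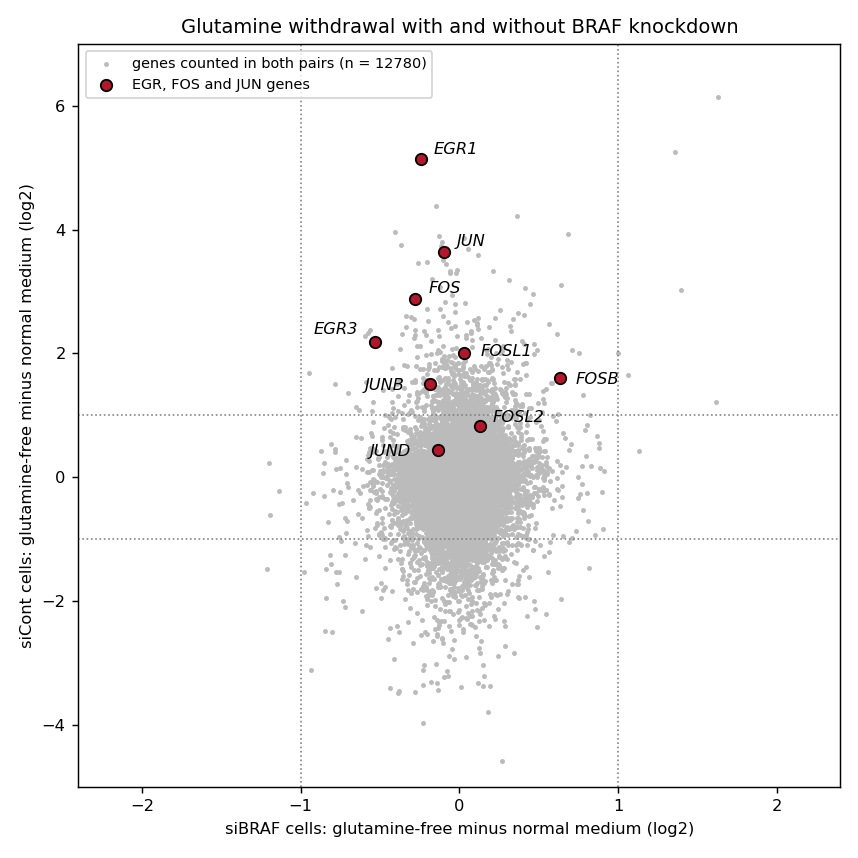
Difference of log2(intensity + 1) between glutamine-free and normal medium in siBRAF cells (horizontal) and in siCont cells (vertical) for 12780 genes counted in both pairs (grey) and the 9 member genes (red); dotted lines mark 2-fold. The members lie between 0.44 and 5.14 on the siCont axis and between -0.53 and 0.63 on the siBRAF axis.

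In normal medium JUN, FOSL2 and JUND were at least 2-fold higher with siBRAF than with siCont, 3 of 9 beside 7.16% of all genes. FOSL1 was at least 2-fold lower, 1 of 9 beside 7.61%. The other 5 were within 2-fold. The median over the 9 was 0.02, and over the 7 that a filter at the 75th percentile left it was 0.83. Of 8 melanoma markers counted on this pair 3 were at least 2-fold higher (S100B at 2.17, S100A1 at 1.46 and MITF at 1.15) and 1 was lower (CSPG4 at -1.17).

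JUN read 3058 with siBRAF against 243 with siCont in normal medium, a difference of 3.65. It was the 34th highest of 13346 genes, and its 4 probe sets gave 3.24 to 4.57. FOSL2 read 394 against 153, a difference of 1.35, with 5 of 5 probe sets above 0 (0.52 to 2.01) and 3 of them at least 2-fold. JUND read 1055 against 489, a difference of 1.11, but its other 3 probe sets gave -0.23 to 0.57, and the mean of its probe sets was 0.49, within 2-fold.

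FOSL1 read 76.2 with siBRAF against 267 with siCont in normal medium, a difference of -1.80. The 2 FRA genes differed in opposite directions, FOSL1 being 3.50-fold lower and FOSL2 2.57-fold higher. EGR3 read 59.3 against 118, a difference of -0.98, just short of 2-fold. EGR1 read 170 against 95.6, with 3 of 3 probe sets above 0 (0.46 to 0.83). FOS read 23.7 against 23.4 and JUNB 127 against 126, nearly alike.

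On this pair of arrays 13 of 18 ERK output genes passed 2-fold downward and 0 upward, with ETV4 at -3.47 and ETV5 at -3.23. Of 22 other immediate early genes 4 were higher and 4 lower, with ATF3 at 4.63 and RHOB at 1.79 against MAFF at -2.52 and IER3 at -1.64. Among 13 AP-1 linked target genes 5 passed 2-fold downward and 0 upward, with MMP1 at -4.14 and IL11 at -3.68. JUN and ATF3 were high on the siBRAF array, on which 5 of these 13 genes were at least 2-fold lower. The median of the 13 was -0.97 and the highest value 0.53. A link between these levels was not tested. Of 10 SRF, ETS and CREB regulators 1 was higher (MRTFA, 1.10) and 1 lower (ELK3, -1.21).

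In glutamine-free medium siBRAF went with lower levels of 6 of the 9 genes, beside 10.8% of all genes, and 0 were at least 2-fold higher, beside 12.8%. EGR1 read 144 with siBRAF against 3403 with siCont, 23.6-fold lower and the 15th lowest of 13496 genes. FOSL1 read 77.7 against 1082 and EGR3 40.8 against 541, differences of -3.78 and -3.70. FOS stood at -3.14, JUNB at -1.67 and FOSB at -1.66. The value of FOS on the siBRAF array, 19.4, is near the array median, and with log2(intensity + 16) its difference was -2.46, with FOSB at -1.13.

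JUN was at -0.09 in this pair, at 2858 with siBRAF against 3049 with siCont, and its 4 probe sets gave -0.35 to 0.01. FOSL2 was at 0.65 and JUND at 0.54. S100B was at 3.25 and S100A1 at 1.70, 2 of 8 melanoma markers counted, and 0 were at least 2-fold lower. The 5 probe sets of FOSL2 were split, with 3 above 0 and a range of -0.38 to 1.45. Among 23 other immediate early genes 15 passed 2-fold downward and 0 upward, with MAFF at -5.36 and MYC at -4.89. NAB2 and NAB1 were at -1.58 and -1.14. Of 15 AP-1 linked target genes 11 were lower and 0 higher, with a median of -1.97. Of 18 ERK output genes 14 were lower and 0 higher, with a median of -2.33. This pair shares the siCont glutamine-free array with the glutamine comparison above, so the high values of that array enter both.

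**Figure D3:**
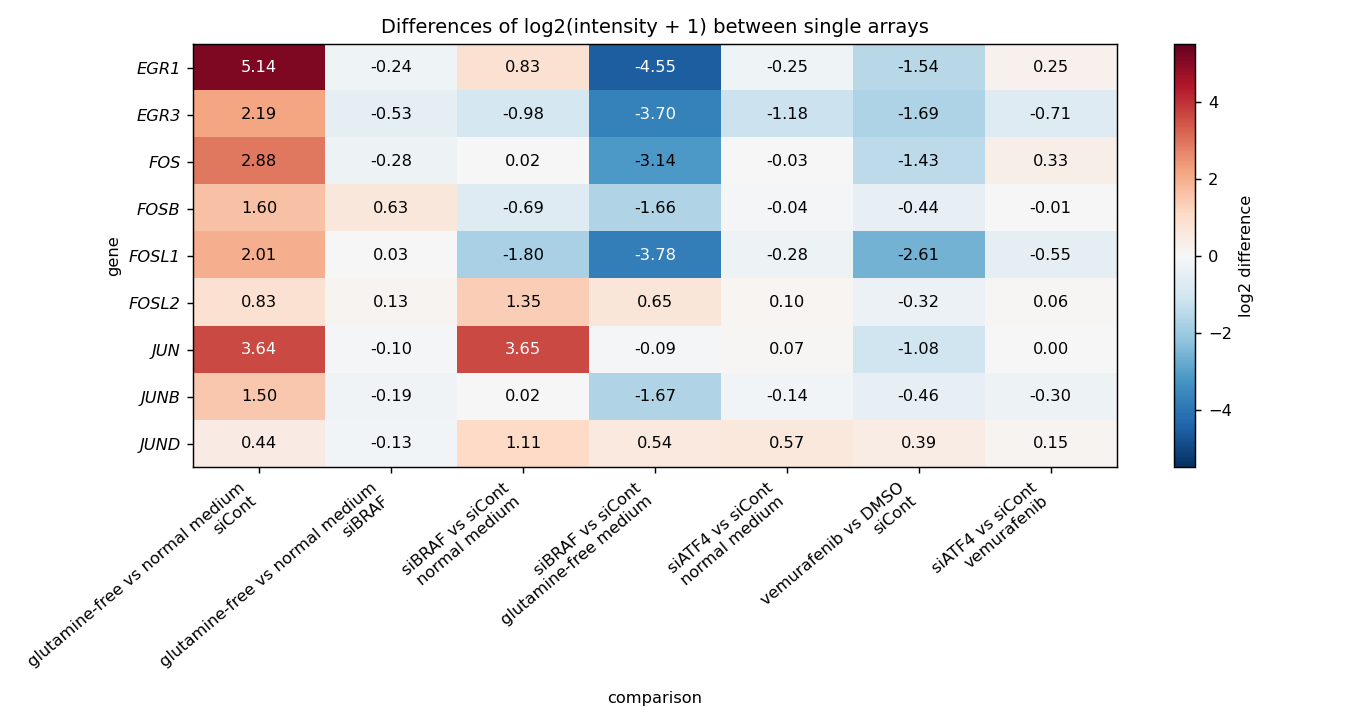
Differences of log2(intensity + 1) for the 9 genes (rows) in the 7 pairs of arrays (columns), each the first-named condition minus the second, with red for higher and blue for lower. JUN was at 3.64 with glutamine withdrawal in siCont cells and at 3.65 with siBRAF in normal medium. Both JUN values were taken against the same siCont array in normal medium. FOSL1 was at -1.80, -3.78 and -2.61 in the 2 siBRAF pairs and with vemurafenib.

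With vemurafenib for 4 h in siCont cells 5 of the 9 genes were at least 2-fold lower, beside 1.92% of all genes. At least 2-fold higher were 0 of 9, beside 0.859%. The median over the 9 was -1.08, beside 0.02 over all genes. FOSL1 was lowest at -2.61, the 24th lowest of 13160 genes, followed by EGR3 (-1.69), EGR1 (-1.54), FOS (-1.43) and JUN (-1.08).

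FOSL1 read 165 in vemurafenib against 1008 in DMSO, 6.12-fold lower. EGR3 read 81.9 against 267. EGR1 read 30.0 against 89.3 and FOS 12.9 against 36.4, and these 2 lay below the array median of 36.9 in vemurafenib. FOS was counted only because its DMSO value of 36.42 just reached the median of that array, 36.38. With log2(intensity + 16) the difference of FOS was -0.86, within 2-fold. Of the 3 probe sets of EGR1, 2 were at least 2-fold lower, and the third, at -0.46, was below the array median on both arrays.

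JUN read 453 in vemurafenib against 961 in DMSO, and its 4 probe sets gave -1.40 to -1.08. With siBRAF in normal medium the same gene was at 3.65. The drug was given for 4 h and the siBRAF cells were in medium for 18 h, so the times differ and the values stand side by side without a comparison. FOSB read 37.7 against 51.4, JUNB 102 against 140 and FOSL2 158 against 198, all within 2-fold. JUND read 1314 against 1000, a difference of 0.39 on its main probe set and of -0.12 to 0.11 on the other 3.

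With the drug 15 of 18 ERK output genes passed 2-fold downward and 0 upward, with DUSP6 at -6.76 and SPRY2 at -4.41. Of 21 other immediate early genes 11 were lower and 1 was higher, ATF3 at 1.57, with MAFF at -3.98 and IER3 at -3.94. Of 12 bZIP factors 3 were higher, among them JDP2, a repressor of AP-1 sites, at 3.06, and 1 was lower, at -3.98. Of 12 AP-1 linked target genes 5 were lower and 0 higher. Of 10 SRF, ETS and CREB regulators 1 was lower, ELK3 at -1.24, which was also lower with siBRAF in both media (-1.21 in normal medium and -1.62 without glutamine). FOSL1, EGR3 and FOSB were lower with siBRAF in both media and with vemurafenib, FOSB by less than 2-fold in normal medium and in vemurafenib and EGR3 by less than 2-fold in normal medium. JUND was higher in all 3 on its main probe set.

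With siATF4 in normal medium 8 of 9 genes were within 2-fold of siCont, 0 were higher, beside 0.471% of all genes, and 1 was lower, EGR3, beside 0.387%. The siCont array in normal medium also enters the glutamine comparison and the siBRAF comparison in normal medium. EGR3 read 51.4 with siATF4 against 118 with siCont, a difference of -1.18 and the 21st lowest of 13170 genes. With log2(intensity + 16) it was -0.99, just within 2-fold. S100B was at -1.345 on this pair, the 1 of 8 melanoma markers past 2-fold. EGR3 has 1 probe set here, so a second reading of it is lacking.

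EGR1 read 80.3 with siATF4 against 95.6 with siCont, FOSL1 220 against 267, and JUN 256 against 243. JUND read 727 against 489, a difference of 0.57, with its other probe sets at -0.18 to 0.36. Of 22 other immediate early genes 0 were at least 2-fold apart. Of 15 AP-1 linked target genes 3 were higher, MMP10 at 1.74, IL11 at 1.71 and MMP1 at 1.62. MMP1 was named here beyond the 2 highest of its list because it makes up the count of 3.

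In vemurafenib 7 of the 9 genes could be counted and 0 of 7 were at least 2-fold apart with siATF4, beside 0.205% of all genes higher and 0.729% lower. EGR1 and FOS were below the array median on both arrays. EGR3 was again the lowest of the 7, at 49.8 with siATF4 against 81.9 with siCont, a difference of -0.71. FOSL1 read 112 against 165, a difference of -0.55. JUN read 453 on both arrays. The 3 drug arrays thus ordered FOSL1 as 112 in siATF4 cells in vemurafenib, 165 in siCont cells in vemurafenib and 1008 in siCont cells in DMSO, and EGR3 as 49.8, 81.9 and 267 on the same arrays. Of 20 other immediate early genes 3 were at least 2-fold lower with siATF4 and 0 higher, with a lowest value of -1.15. Of 12 bZIP factors 4 were at least 2-fold lower, with JDP2 at -3.44 and ATF4, the target of the siRNA, at -2.59.

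**Figure D4:**
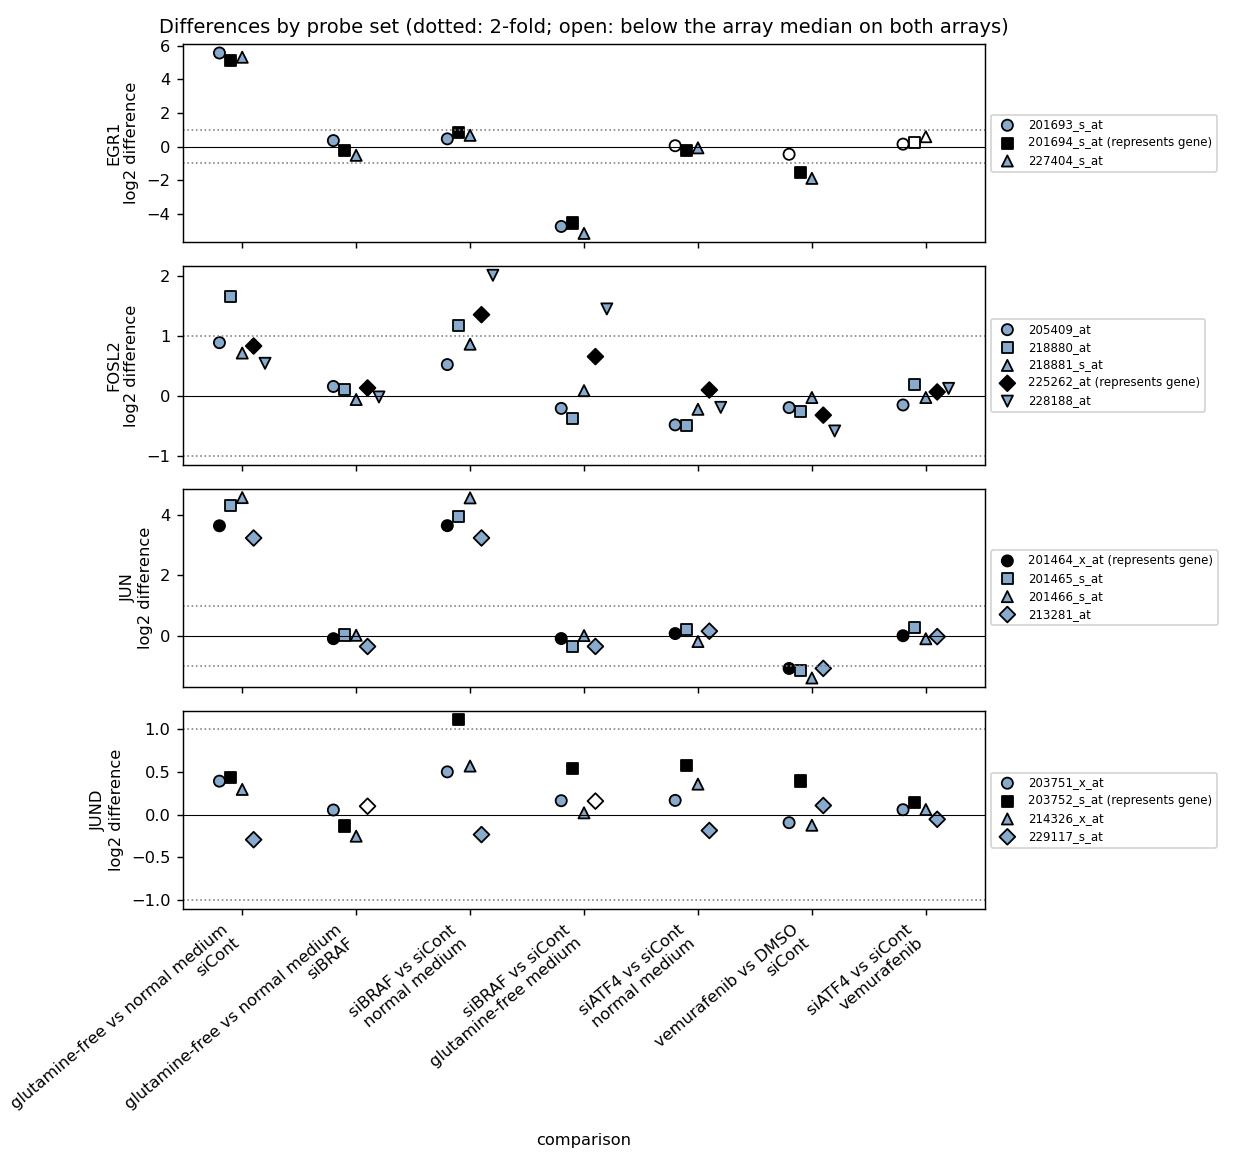
Differences by probe set for the 4 genes with more than 1, in the 7 pairs of arrays; black points are the probe set that represents the gene, open points lay below the array median on both arrays, and dotted lines mark 2-fold. The 4 JUN probe sets agree within 3.24 to 4.58 for glutamine withdrawal in siCont cells, whereas those of JUND range from -0.23 to 1.11 for siBRAF in normal medium.

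**Figure D5:**
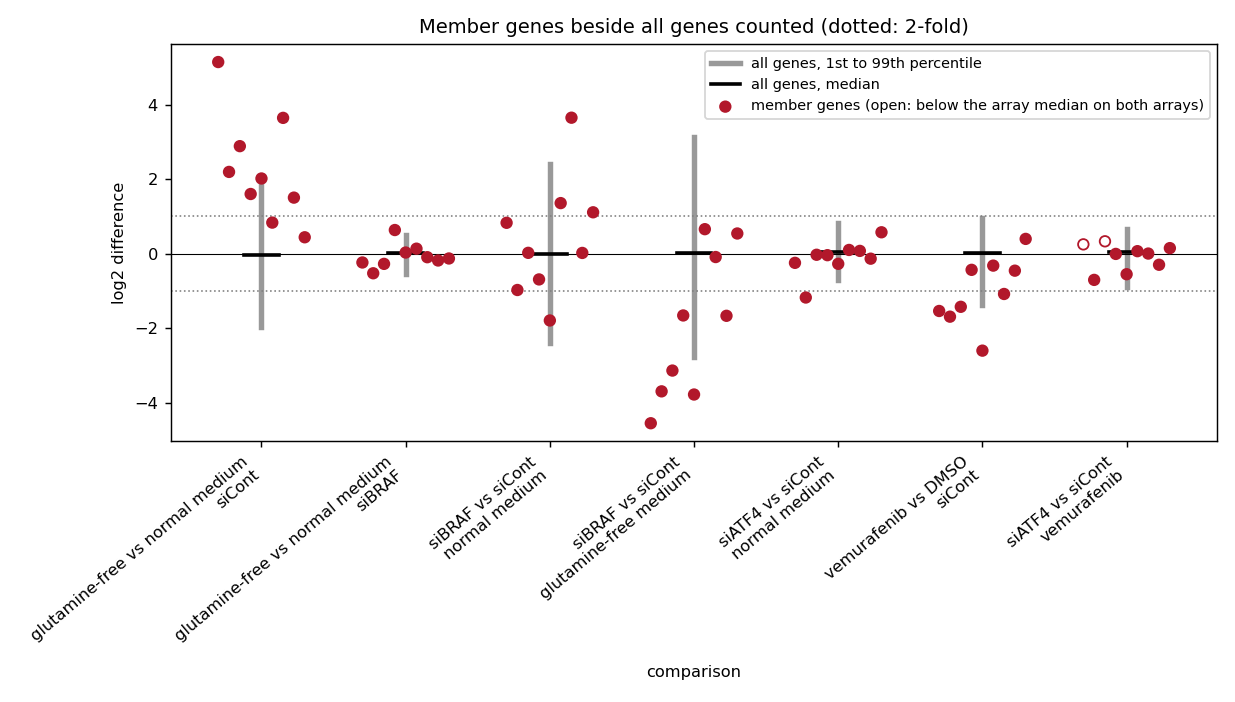
Differences of the 9 genes (red) beside all genes counted (grey bar, 1st to 99th percentile; black line, median) in each pair of arrays. For glutamine withdrawal in siCont cells the 99th percentile of all genes was 2.01, with 5 members above it, and for vemurafenib the 1st percentile was -1.39, with 4 members below it. Of those 4, FOS (-1.43) only just reached the array median in DMSO.

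Across the 8 arrays, each value centred on its own set of arrays, the genes fell into patterns that were described by Pearson correlations over 8 points sharing 2 sets of arrays. EGR1, FOS and JUNB were alike (0.96 to 0.97 for each pair), all highest in siCont cells without glutamine. EGR3, FOSB and FOSL1 were also highest there among the medium arrays. EGR3 correlated with JUNB at 0.95, with FOSL1 at 0.93 and with FOS at 0.92, so these patterns overlap. JUN and FOSL2 correlated at 0.93. FOSL1 and JUN were at 0.04 and FOSL1 and JUND at -0.73. The siCont glutamine-free array weighs heavily in these values.

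Of 4960 genes that reached an array median on at least 1 array and spanned at least 2-fold within a set, the 5 most like EGR1 were TIMM23B, OSBPL3, CHIC2, PDGFA and CTTNBP2NL, with correlations of 0.99. PDGFA, a growth factor gene, read 147 in siCont cells without glutamine against 48.7 in normal medium. The 5 most like FOSL1 were MAFF, which encodes a small MAF partner, SLC25A32, ZNF451, URB2 and SINHCAF, at 0.99 or above. MAFF read 81.9 with siBRAF against 476 with siCont in normal medium, and 45.7 in vemurafenib against 735 in DMSO. The 5 most like JUN were IRF2BP2 (0.98), PARP8, STARD13, DNAJB9 and LINC01198 (0.96 each). DNAJB9, a chaperone gene of the endoplasmic reticulum, read 503 in siCont cells without glutamine against 180 in normal medium, and 439 with siBRAF in normal medium.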

How the data were processed

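The authors deposited linear intensities computed with RMA, per the submitters' processing notes; the RMA version is not given in the sources used here. Biotinylated cRNA came from 5 ug of total RNA, per the labels' protocols. The table holds 54675 probe sets, 62 of them controls. The platform annotation paired 41091 probe sets with 1 symbol, 1801 with several and 11721 with none, and symbols were updated through gene IDs to RefSeq. Where a gene had several probe sets, the one whose log2 values averaged highest over the 8 arrays stood for it. Differences of log2(intensity + 1) were taken within the 5 medium arrays and within the 3 DMSO and vemurafenib arrays, since the scales differ, and understate changes of low genes. A gene was counted where the higher value reached its array median (50th percentile). With 1 array per condition no test was made, and the number of arrays limits precision. Scripts ran in Python 3.11.15 with numpy 2.4.6 and pandas 2.3.3 and were tested on simulated data. The text names the members, at most the 2 highest and 2 lowest genes of a list in a comparison, and the 5 genes most like EGR1, FOSL1 and JUN. The members and lists were chosen with earlier results of these data known. Alternatives were another added constant (16), no filter, a filter at the 75th percentile, the mean of all probe sets, probe sets not shared between transcripts, and quantile normalization within sets.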

Additional observations from a re-analysis of the deposited data

Results flagged for a closer look

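With 1 array per condition, no group was large enough to look for an outlying sample. The effects below had opposite signs in 2 settings and lay at least 2-fold apart, and the difference was not tested. The glutamine effect in siBRAF and in siCont cells was -0.24 and 5.14 for EGR1, -0.53 and 2.19 for EGR3, -0.28 and 2.88 for FOS, -0.10 and 3.64 for JUN, and -0.19 and 1.50 for JUNB. These siBRAF values lay within the 1st to 99th percentile of all genes on that pair, -0.54 to 0.50. The probe sets of EGR1 (-0.52 to 0.35) and of JUN (-0.36 to 0.02) did not share a sign there. The siBRAF values thus show little response and not a reversed one. The siBRAF effect in glutamine-free and in normal medium was -4.55 and 0.83 for EGR1, -3.14 and 0.0194 for FOS, -0.0932 and 3.65 for JUN, and -1.67 and 0.0169 for JUNB. The values 0.0194, -0.0932 and 0.0169 are too small to give a direction. With quantile normalization the value of FOS in normal medium was -0.022, so that its signs were alike and FOS would not stand here for this effect. The 2 sets of effects come from the same 4 arrays and are not independent of each other.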

How the results depend on the processing

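Over the 6 alternatives, 333 of the 337 recomputed differences of single members stayed on their side of the 2-fold limit, and none past that limit turned in sign. Many of the 337 could not change. The 2 filter settings alter only which genes are counted. A gene with 1 probe set keeps its value when probe sets are averaged, as does one whose main probe set is not shared when shared ones are dropped. The count of 333 therefore overstates how stable the values are. The sign turned in 5, all within 2-fold. FOSL2 with siATF4 in normal medium came to -0.26 in place of 0.10 when probe sets were averaged. With quantile normalization FOS with siBRAF in normal medium came to -0.022 in place of 0.0194, and FOSB with siATF4 in vemurafenib to 0.006 in place of -0.0093. JUN with siATF4 in vemurafenib came to -0.0201 with quantile normalization and to -0.0299 without shared probe sets, in place of 0.0002. With log2(intensity + 16), 0 members in place of 1 were at least 2-fold lower with siATF4 in normal medium, since EGR3 came to -0.99, and FOS with vemurafenib came to -0.86. With a filter at the 75th percentile, 3 members in place of 5 were at least 2-fold lower with vemurafenib, because fewer genes were counted, and the median over the members was 0.83 in place of 0.02 with siBRAF in normal medium and -2.41 in place of -1.67 with siBRAF without glutamine. With quantile normalization, 2 members in place of 1 were lower with siBRAF in normal medium, EGR3 coming to -1.01, and the difference of the glutamine response of FOSB came to -1.02 in place of -0.97. The cause of these 2 changes was not tested. With the mean of all probe sets JUND with siBRAF in normal medium came to 0.49. EGR1 and JUND have shared probe sets alone and gave no value without these. The share of all genes at least 2-fold higher with siATF4 in vemurafenib was 0.0607% with log2(intensity + 16) in place of 0.205%. With siATF4 in normal medium it was 0.258% in place of 0.471%, and the share lower was 0.167% in place of 0.387% (0.236% when probe sets were averaged). The share that was lower without glutamine was 4.72% in place of 7.22% in siCont cells and 0.0305% in place of 0.0761% in siBRAF cells (0.05% with the filter at the 75th percentile). The share higher in siBRAF cells was 0.0303% with no filter and 0.0749% with the filter at the 75th percentile, in place of 0.0457%. No paired analysis was possible because each condition has 1 array and the labels give no replicate numbers. Low signal over background limits FOS, FOSB and, in vemurafenib, EGR1.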
